A study of Mus musculus with 16 samples.

Results

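Lrrc55, Gm13716, Ackr2, Cyp8b1, Tacr3 and Duox2 were close to absent from endothelial cells of the cerebral cortex of mice at postnatal day 50 (P50) and were expressed there at postnatal day 14 (P14), in wild-type (WT) mice as well as in mice hemizygous for the 16p11.2df deletion (df/+). These 6 genes of the 52636 in the count table were chosen by their read levels at the 2 ages, near 0 at P50 and present at P14, among genes with no known part in cell proliferation. Their age values are therefore a description and carry no test. Over the 8 P50 libraries the 6 genes together held 111 reads of 132633546, against 24543 reads of 113804349 over the 8 P14 libraries. They lie at 4 places in the genome, because Lrrc55 and Gm13716 overlap and Ackr2 and Cyp8b1 are adjacent. All 6 were among the 15368 genes abundant enough to be tested, and each entered that set through its P14 libraries.

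The 6 genes have no common pathway. Lrrc55 encodes a leucine-rich repeat protein that acts as an auxiliary subunit of BK channels, the large-conductance potassium channels opened by calcium and voltage, and shifts their opening to less depolarised voltages. Gm13716 is annotated as an antisense transcript at the start of Lrrc55. Ackr2 encodes an atypical chemokine receptor that takes up inflammatory CC chemokines and degrades them without G protein signalling, and it is best known from lymphatic endothelium. Cyp8b1 encodes the liver sterol hydroxylase that is needed for cholic acid. Tacr3 encodes the neurokinin B receptor, a G protein-coupled receptor known from hypothalamic and other neurons. Duox2 encodes a dual oxidase, an NADPH oxidase that releases hydrogen peroxide, as used for thyroid hormone synthesis, and that needs the maturation factor encoded by Duoxa2. Between these ages the cortical vessels of the mouse leave the phase of sprouting and proliferation and become quiescent.

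By the GENCODE annotation of GRCm38, Lrrc55 (ENSMUSG00000075224) spans 85162334 to 85197197 on the minus strand of chromosome 2, with 6474 bases of exon in 3 blocks. Gm13716 (ENSMUSG00000086905) runs the opposite way from 85196932 to 85198675, has 808 bases of exon, and shares 266 exonic bases with the 5′ end of Lrrc55. Ackr2 (ENSMUSG00000044534) lies on the plus strand of chromosome 9, from 121898355 to 121911074, and Cyp8b1 (ENSMUSG00000050445), a gene of a single exon, on the minus strand from 121914356 to 121916305. The 3′ ends of this pair face each other across 3281 bases and share no exon. Tacr3 (ENSMUSG00000028172) spans 134829007 to 134934579 on the plus strand of chromosome 3, with 5 exon blocks. Duox2 (ENSMUSG00000068452) spans 122279247 to 122298449 on the minus strand of chromosome 2, with 33 exon blocks.

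The 250 bases before the annotated start are shown for 4 of the genes, so that the upstream regions of the members can be set side by side. They come from RefSeq on GRCm38.p6, where 5 of the 6 genes were matched. That of Duox2 is not shown because 222 of its bases lie in annotated exons. Capitals mark matches to the motifs described next. The regions are chr2:85198751-85199000 (minus strand) for Lrrc55, chr9:121898105-121898354 (plus) for Ackr2, chr9:121916306-121916555 (minus) for Cyp8b1 and chr3:134828757-134829006 (plus) for Tacr3. The RefSeq start of Lrrc55 lies upstream of the GENCODE one, so that Gm13716 falls inside the RefSeq gene and not in this window.
Lrrc55: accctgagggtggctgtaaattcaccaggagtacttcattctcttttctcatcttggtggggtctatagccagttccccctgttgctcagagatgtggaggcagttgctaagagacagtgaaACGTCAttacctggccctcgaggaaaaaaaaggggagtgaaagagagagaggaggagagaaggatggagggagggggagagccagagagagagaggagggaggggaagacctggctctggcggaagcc
Ackr2: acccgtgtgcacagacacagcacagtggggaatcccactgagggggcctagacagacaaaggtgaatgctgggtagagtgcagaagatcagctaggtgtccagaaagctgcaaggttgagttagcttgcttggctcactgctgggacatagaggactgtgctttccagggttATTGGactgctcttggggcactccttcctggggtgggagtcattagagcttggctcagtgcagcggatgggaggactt
Cyp8b1: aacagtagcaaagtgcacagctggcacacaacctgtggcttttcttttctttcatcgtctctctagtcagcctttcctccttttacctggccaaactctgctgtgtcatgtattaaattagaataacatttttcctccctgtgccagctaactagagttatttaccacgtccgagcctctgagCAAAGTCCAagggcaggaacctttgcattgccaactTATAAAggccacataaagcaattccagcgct
Tacr3: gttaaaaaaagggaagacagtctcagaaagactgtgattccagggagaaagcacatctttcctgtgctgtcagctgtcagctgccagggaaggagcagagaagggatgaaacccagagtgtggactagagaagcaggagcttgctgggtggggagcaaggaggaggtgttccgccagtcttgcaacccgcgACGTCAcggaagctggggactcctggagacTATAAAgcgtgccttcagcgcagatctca

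Short motifs were searched on both strands and were chosen with the sequences in view. Cyp8b1 and Tacr3 hold a TATA box (TATAAA) whose leading base lies 31 and 29 bases before the start, and 12.4% of 32851 promoters hold these letters within 250 bases. Lrrc55 and Tacr3 hold the core of a cyclic AMP response element (ACGTCA) at 128 and 59 bases, found in 6.47% of promoters. Neither has the full element (TGACGTCA, which contains the core, 1.55%). Cyp8b1 also holds an HNF4-type motif (CAAAGTCCA) at 67 bases, present in 0.384% of promoters, and HNF4 is a factor known from liver. Ackr2 holds a CCAAT box on the opposite strand (ATTGG) at 78 bases, as do 33.8% of promoters. None of these 4 windows holds a GC box (GGGCGG, 32.7%), an E-box (CACGTG, 6.02%), an ETS motif (CCGGAA, 12%), a forkhead motif (TGTTTAC, 3.17%), a GATA motif (AGATAA, 9.99%) or a TCF/LEF motif (ATCAAAG, 3.21%). The windows hold 3, 2, 4 and 7 CG dinucleotides in Lrrc55, Ackr2, Cyp8b1 and Tacr3, against a median of 6 over all promoters. No motif searched is present in all 4 windows.

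RNA was sequenced from cortical endothelial cells selected with magnetic beads against CD31, after myelin and CD45-positive cells had been depleted, and extracted without culture. The groups were P50 df/+, P50 WT, P14 df/+ and P14 WT, with 4 libraries each, and every library pooled the cells of 2 mice. The df/+ mice are hemizygous for the 16p11.2df deletion on a mixed B6/129 background and are a model of the human 16p11.2 deletion associated with autism, and WT mice are their littermates. Which sex was used is not stated in the labels. Total counts per library were 15611059 to 18737781 in P50 df/+, 14303921 to 17639603 in P50 WT, 8658792 to 18063589 in P14 df/+ and 12484207 to 17178787 in P14 WT. The 18 tested genes of the deleted interval had median log2 ratios to same-age WT libraries of -1.33 to -0.42 in P50 df/+, where replicate 2 was nearest to WT, and of -1.16 to -1.06 in P14 df/+. Replicate 2 of P50 df/+ and replicate 1 of P14 WT stood apart from their groups in earlier results. Values are therefore also given without both.

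Levels are CPM, the read count per 1000000 reads, scaled with the TMM factors of edgeR. Reads and not CPM are given where a library holds only a few. Lrrc55 had at most 10 reads in a P50 library and was abundant at P14. The P50 df/+ libraries held 6, 0, 3 and 9 reads of Lrrc55 and the P50 WT libraries 3, 2, 3 and 10, while the P14 df/+ libraries stood at 81.0, 72.0, 61.4 and 137 CPM and the P14 WT libraries at 54.1, 95.8, 118 and 133 CPM (replicates 1 to 4 in each group). The highest P50 level was 0.551 CPM and the lowest P14 level 54.1 CPM. Lrrc55 averaged 0.249 ± 0.209 CPM in P50 df/+, 0.271 ± 0.190 CPM in P50 WT, 87.8 ± 33.7 CPM in P14 df/+ and 100.1 ± 34.2 CPM in P14 WT (SD, n = 4 each). Its summed P50 level was 0.288% of its P14 level, with a 95% counting interval of 0.202% to 0.399%, or 347-fold lower. The value was 0.298% in df/+ and 0.281% in WT, and 0.307% over both without the 2 libraries that stood apart. The genotypes overlapped at each age.

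Gm13716 was far less abundant than Lrrc55 and had the same order of groups in its P14 means. It had 0, 0, 0 and 9 reads in P50 df/+ and 0, 1, 0 and 0 in P50 WT, against 5.43, 3.30, 2.93 and 5.70 CPM in P14 df/+ and 3.57, 4.62, 7.23 and 7.29 CPM in P14 WT. All but 1 of its 10 P50 reads were thus in replicate 4 of P50 df/+. That library held 9 reads of Lrrc55 as well, although Lrrc55 had far more reads than Gm13716 in every P14 library. In it 0.406% of the counts fell on genes too low to be tested, against 0.0977% to 0.130% in the other 15 libraries, and the part of this in the Gm13716 reads was not tested. The P50 level was 1.49% of the P14 level (0.711% to 2.76%), 2.94% in df/+ and 0.277% in WT. Without replicate 4 of P50 df/+, and with 3 reads as the limit for the other libraries at 0, the df/+ value was at most 1.35%. The kit keeps strand, but no source used here says whether the counting used it, so reads of the overlap between Lrrc55 and Gm13716 cannot be told apart.

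Ackr2 had the highest P14 level of the 6 genes per length of exon. It had 15, 0, 10 and 10 reads in P50 df/+ and 9, 5, 6 and 6 in P50 WT, against 107, 105, 83.2 and 117 CPM in P14 df/+ and 105, 117, 105 and 109 CPM in P14 WT. Its level was almost even across the P14 libraries, with only replicate 3 of df/+ under 100. The group means were 0.491 ± 0.355 CPM in P50 df/+, 0.412 ± 0.112 CPM in P50 WT, 103 ± 14.2 CPM in P14 df/+ and 109 ± 5.87 CPM in P14 WT (SD, n = 4 each). Its P50 level was 0.437% of its P14 level (0.334% to 0.561%), with 0.500% in df/+ and 0.374% in WT, or 229-fold lower. With 61 reads Ackr2 had more P50 reads than the other 5 genes together, and 7 of the 8 P50 libraries held at least 5.

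Cyp8b1, the neighbour of Ackr2, had no read in any of the 8 P50 libraries. At P14 it stood at 2.28, 2.09, 2.02 and 1.51 CPM in df/+ and at 2.22, 2.34, 2.41 and 2.64 CPM in WT, from 19 to 42 reads per library. Its P14 level was low but present in every library. With 3 reads over the 8 P50 libraries as the limit that a count of 0 allows, the P50 level was at most 1.04% of the P14 level, or at least 96.1-fold lower (at least 44.9-fold in df/+ and 50.8-fold in WT, with the floor taken over the 4 libraries of a genotype). The smaller bound than for Ackr2 follows from the lower P14 level, so the data do not show whether the remaining share of the 2 neighbours differed.

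Tacr3 was detected at P50 by 1 read in replicate 3 of df/+ and 1 read in replicate 1 of WT. At P14 its levels were 3.04, 3.08, 2.02 and 3.98 CPM in df/+ and 2.69, 5.09, 5.99 and 3.86 CPM in WT. Replicates 2 and 3 of P14 WT were above every other library. The P50 level was 0.404% of the P14 level, with an interval of 0.0487% to 1.47% that reflects only 2 reads. Duox2 had the lowest P14 level of the 6, with 0.977, 1.21, 0.279 and 1.72 CPM in df/+ and 0.951, 1.70, 2.06 and 1.5 CPM in WT, or 4 to 30 reads per library. At P50 it had 0 reads in the df/+ libraries and 2 in all in WT, both in replicate 2, so its P50 level was 1.17% of P14 (0.140% to 4.28%). Replicate 2 of P50 df/+ held no read of any of the 6 genes, and at P14 every library held reads of all 6.

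**Figure D1:**
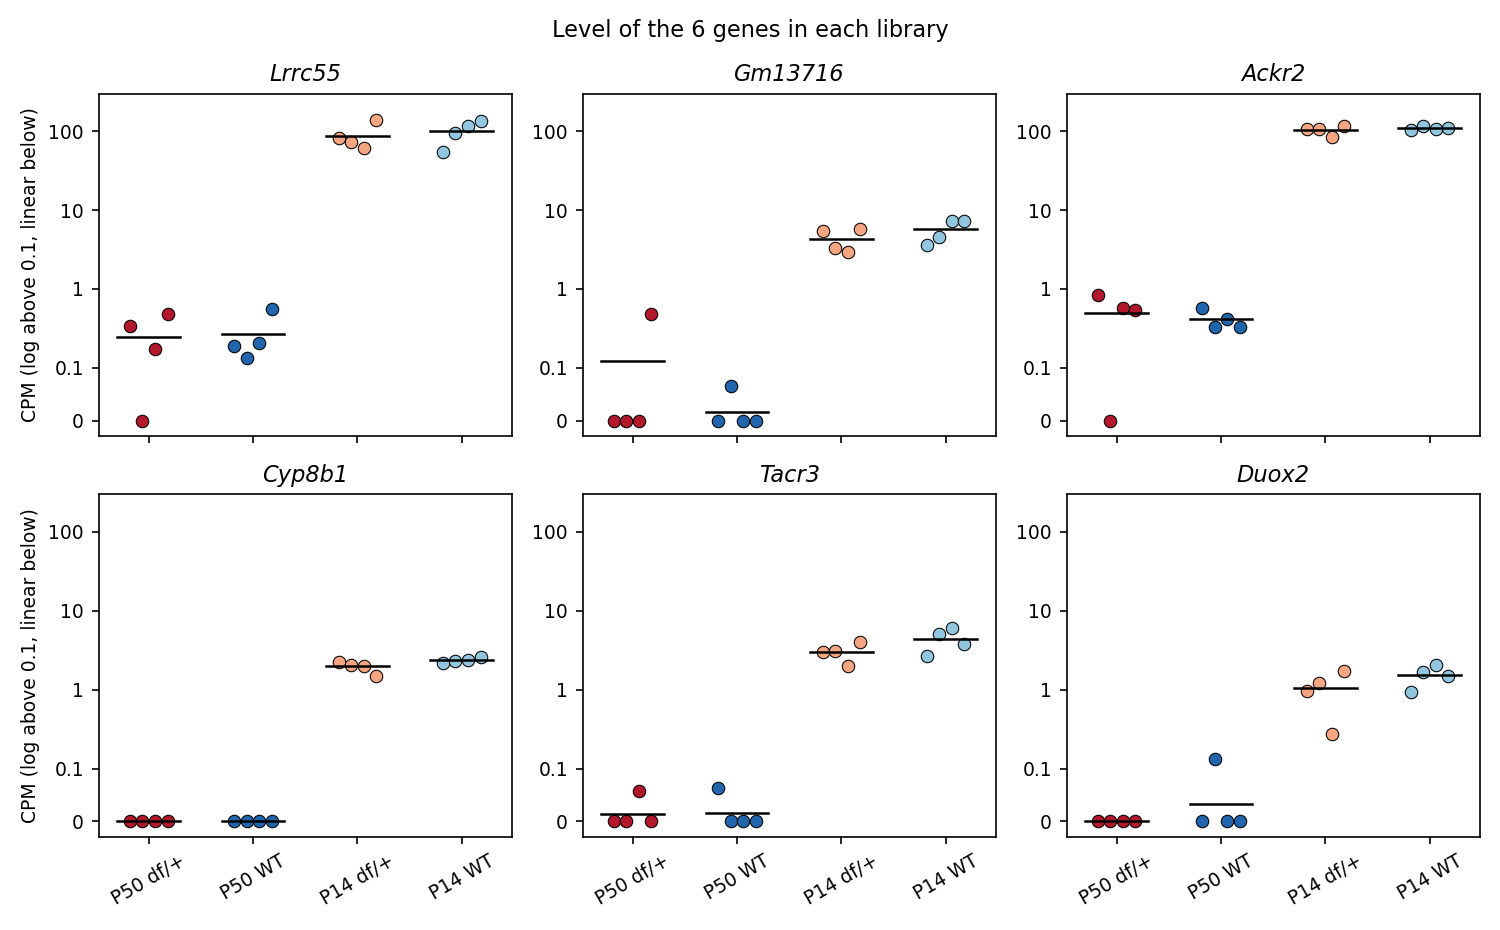
Level of each of the 6 genes in each of the 16 libraries, in CPM on an axis that is logarithmic above 0.1 and linear below it; points are libraries, left to right replicates 1 to 4, and lines are group means. In every panel the 8 P50 libraries lie under the 8 P14 libraries, and the genotypes overlap within each age.

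Per length of exon, which allows genes to be compared, the 8 P14 libraries averaged 33.9 CPM per kb for Ackr2, 14.5 for Lrrc55, 6.2 for Gm13716, 1.12 for Cyp8b1, 0.988 for Tacr3 and 0.192 for Duox2. At P50 the same level was 0.144 for Ackr2, 0.0852 for Gm13716, 0.0402 for Lrrc55, 0.0040 for Tacr3, 0.0024 for Duox2 and 0 for Cyp8b1. Neighbours in the P50 order rest on few reads and are not resolved. Of all tested genes 19.7% were called lower at P50 with the genotypes averaged, by the quasi-likelihood test of edgeR at a Benjamini-Hochberg adjusted p under 0.05, and 10.2% had every P50 library under every P14 library. Within df/+ 12.7% were lower and 16.7% higher, and within WT 12.1% and 13.1%. All 6 genes belong to the lower sets, which follows from how they were chosen. In these bulk libraries fewer cells of a type and less RNA per cell cannot be told apart.

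By the fitted P50 to P14 ratio, Lrrc55, Cyp8b1, Ackr2 and Tacr3 were the 4 lowest of the 15368 genes, with log2 values of -8.39, -8.07, -7.83 and -7.29. Gm13716 was at rank 7 (-6.44) and Duox2 at rank 10 (-6.15). The value of Cyp8b1 depends on the prior count added to libraries at 0. With a floor of 3 reads at P50 for every gene, Lrrc55, Ackr2 and Tacr3 held ranks 1 to 3, Cyp8b1 rank 5, Gm13716 rank 8 and Duox2 rank 11. Genes ranked between the members were Madcam1, an adhesion molecule for lymphocytes (0.114 CPM in P50 df/+, 0.203 in P50 WT, 16.6 in P14 df/+ and 28.0 in P14 WT), Grm6, Cpa1 and Neil3, a DNA glycosylase of dividing cells. Just after Duox2 came Gm13713, a further antisense transcript of Lrrc55 (-5.93). Casr, the calcium-sensing receptor, Bub1, Melk, Kntc1, Pimreg and Kif2c were among the 20 lowest as well, and Bub1 belongs to the cell cycle list.

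**Figure D2:**
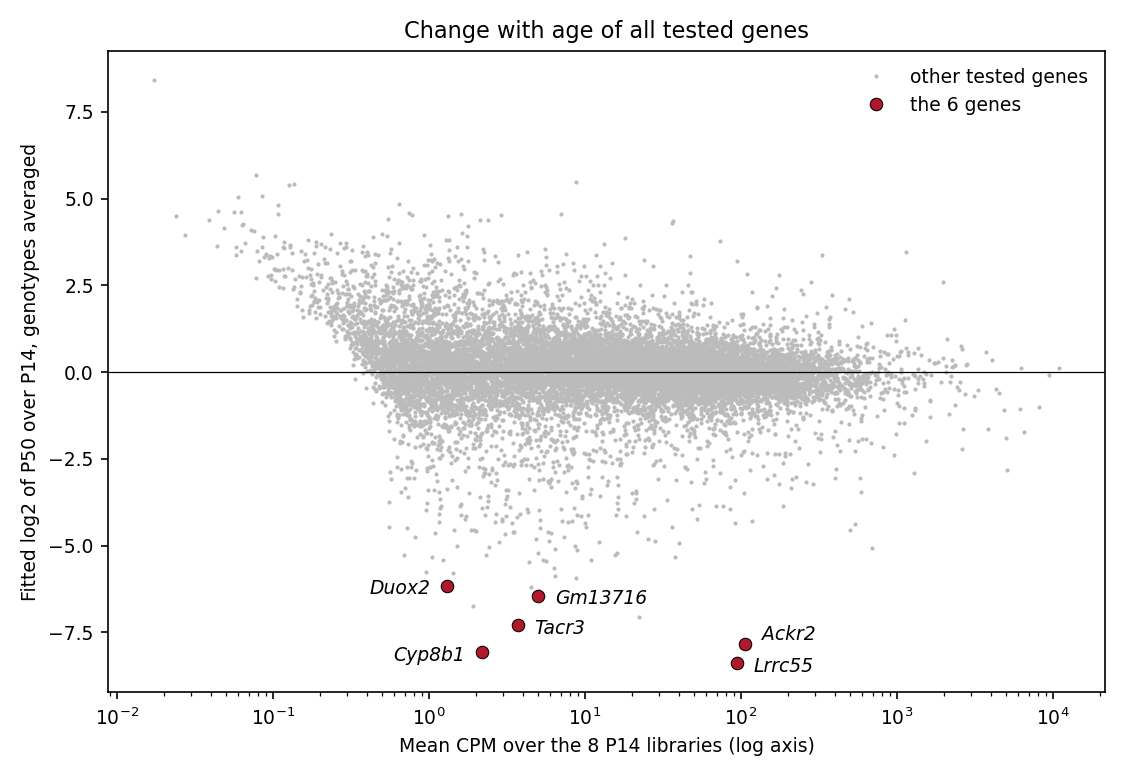
Fitted log2 ratio of P50 over P14, genotypes averaged, against mean CPM over the 8 P14 libraries on a log axis, for all tested genes (grey) and the 6 genes (red). Lrrc55 and Ackr2 stand near 100 CPM at P14 with ratios of -8.39 and -7.83, and the other 4 lie at low P14 levels with ratios from -8.07 to -6.15.

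Likeness of profiles was measured as the root mean square difference of log2 CPM over the 16 libraries, each gene set relative to its P14 mean. Lrrc55 and Ackr2 were each other's nearest gene (0.558), followed for both by Madcam1 (1.32 from Lrrc55 and 1.10 from Ackr2) and Top2a, a topoisomerase of dividing cells. Apln and Nox4 came next for Lrrc55, and Nox4 and Iqgap3 for Ackr2. Nearest to Gm13716 were Pik3cg, Tacr3, Nup210, Lama1 and Aplnr, and nearest to Tacr3 were Neil3, Pik3cg, Kntc1, Nup210 and Hmmr. For Cyp8b1 they were Lama1, Nup210, Gm8817, Epp13 and Clca2, and for Duox2 Slc1a4, C1qtnf6, Fkbp10, Pcdh12 and Best1. The measure groups genes of like P14 level, since a prior count of 2 limits how far a low gene can fall. It also takes in the fall to P50, by which the members were chosen. The closeness of Lrrc55 and Ackr2, both abundant at P14, therefore follows at least in part from that choice. Cyp8b1 was at position 43 in the order of likeness to its neighbour Ackr2, and Ackr2 at position 2776 in the order of likeness to Cyp8b1.

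The surroundings of the 2 neighbour pairs were compared over 250 kb on each side. Near Lrrc55 24 genes are annotated and 7 were tested, of which 4 were lower at P50 and 0 higher. Of all tested genes 19.7% were lower and 24.2% higher. Gm13716, chosen for its low P50 level, and Gm13713, which overlaps Lrrc55, are among the 4, so only Aplnr and Slc43a3 are independent of the choice of genes. Aplnr, which encodes the apelin receptor of angiogenic and venous endothelium and lies 22.4 kb away, had 31.5, 15.7, 13.4 and 28.8 CPM in P50 df/+ and 36.2, 39.1, 15.7 and 27.7 CPM in P50 WT, against 492, 513, 430 and 513 CPM in P14 df/+ and 389, 644, 636 and 677 CPM in P14 WT. The ages did not overlap, and Aplnr fell by 4.37 on the log2 scale (SE 0.236, edgeR Benjamini-Hochberg adjusted p = 1.68e-09). Gm13713, antisense to Lrrc55 and sharing 210 exonic bases with it, averaged 0.156 CPM at P50 and 8.80 CPM at P14 (log2 -5.93, SE 0.407, adjusted p = 2.35e-08). For the same reason as with Gm13716, reads of the overlap between Gm13713 and Lrrc55 cannot be told apart. Slc43a3, a purine nucleobase transporter 204 kb away, averaged 6.54 CPM at P50 and 43.9 CPM at P14 (log2 -2.73, SE 0.361, adjusted p = 2.04e-05). The other 3 did not pass: Ssrp1 (0.18), Tnks1bp1 (-0.13) and 4930443O20Rik (0.42).

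Near Ackr2 29 genes are annotated and 15 were tested. Beside the counts that follow stand 19.7% lower and 24.2% higher at P50 of all tested genes. Cyp8b1, itself chosen for its low P50 level, was the only 1 near Ackr2 called lower. Higher were 5, namely Hhatl (2.57, with 3.71 CPM at P50 and 0.629 CPM at P14), E530011L22Rik (1.12), Ccdc13 (0.90, called in 12 of 23 alternatives), Pomgnt2, a glycosyltransferase of dystroglycan (0.74), and Zfp651 (0.70). Higd1a, 40.0 kb from Ackr2, had a log2 value of 0.16 (SE 0.195), and 1700048O20Rik, 26.1 kb away, one of 0.36 (SE 0.233), neither called. Uncalled values under 0 were those of 4632418H02Rik (-1.47, SE 0.612, edgeR adjusted p = 0.0627), Vipr1 (-0.97, SE 0.447, adjusted p = 0.0897), Snrk (-0.37) and Nktr (-0.34). Near Tacr3 7 genes are annotated and 0 were abundant enough to be tested. Within reach of Duox2 7 of 19 genes were tested, 0 were lower and 3 higher, namely B2m, the light chain of MHC class I (1.45), Shf (0.65) and the pseudogene Bambi-ps1 (1.52). Duoxa2, which lies 450 bases from Duox2 and encodes its maturation factor, had 0 reads in all 16 libraries, Duoxa1 had 5 and Duox1 had 13.

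**Figure D3:**
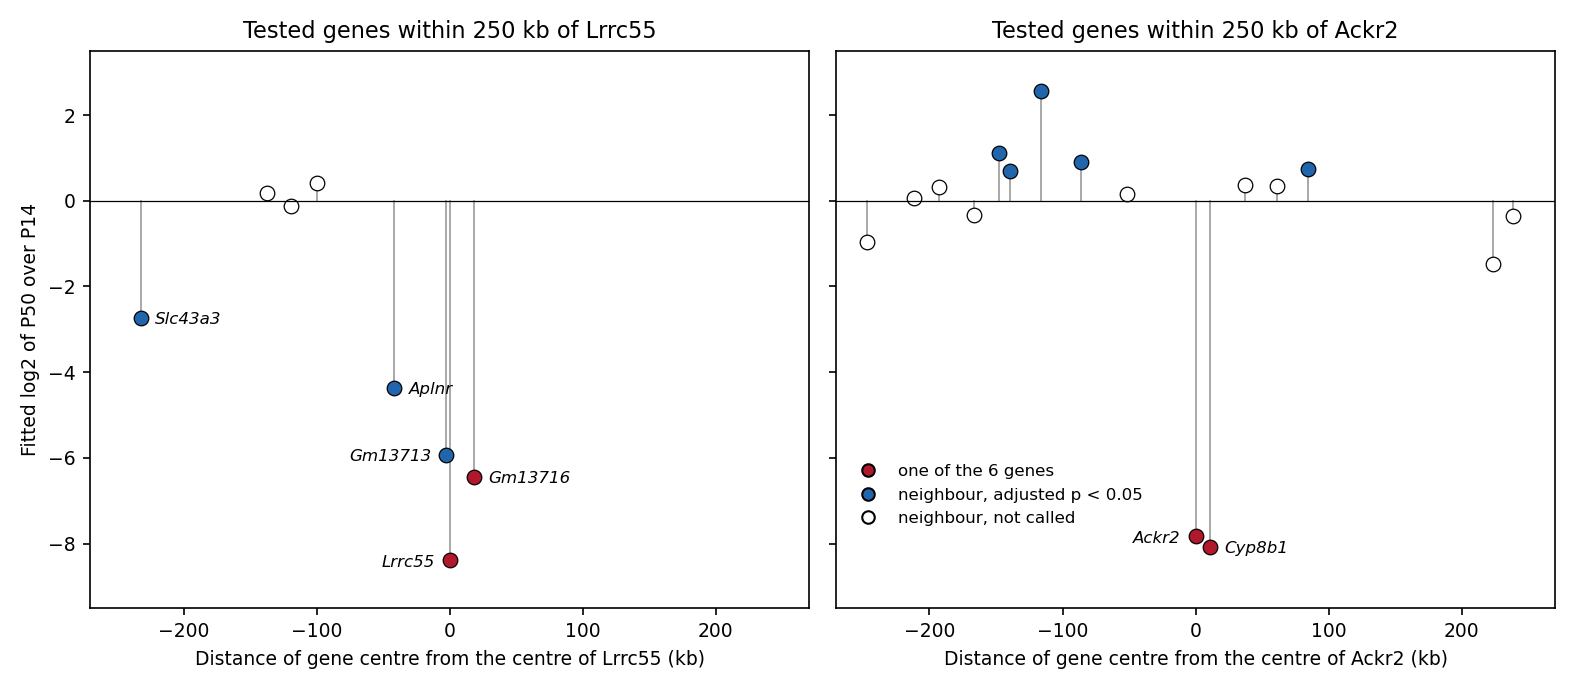
Fitted log2 ratio of P50 over P14 for the tested genes within 250 kb of Lrrc55 and of Ackr2, against the distance between gene centres in kb; red points are members of the 6 genes, blue points neighbours with an adjusted p under 0.05 and white points neighbours that did not pass. Aplnr, Gm13713 and Slc43a3 lie low beside Lrrc55, while the 5 called neighbours of Ackr2 lie above 0.

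The families and pathways of the members were examined next, over 85 other genes of 7 lists, of which 53 were tested. With age 11 were lower at P50 and 12 higher, shares near the 19.7% lower and 24.2% higher of all tested genes. Among BK channel genes 2 of 8 others were tested and 0 called. The pore subunit Kcnma1 averaged 1.53 CPM at P50 and 1.36 CPM at P14, and Kcnmb1, a subunit known from smooth muscle, 8.94 and 9.73 CPM (log2 0.20, SE 0.339, and -0.12, SE 0.183). The paralogs Lrrc26, Lrrc38 and Lrrc52 had 3, 7 and 28 reads in all 16 libraries. Lrrc55 at P14 was thus higher per length than any other gene of this list, with 14.5 CPM per kb against 2.32 for Kcnmb1 and 0.0800 for Kcnma1.

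The other 4 atypical chemokine receptors were all tested, and only Ccrl2 changed, with a higher level at P50 (42.2 CPM at P50 and 23.1 CPM at P14, log2 0.86, SE 0.113, adjusted p = 1.93e-05). Ackr3, a scavenger of the chemokine Cxcl12, averaged 146 CPM at P50 and 169 CPM at P14 (log2 -0.22, SE 0.118). Ackr1, known from venules, had 4.82 CPM at P50 and 4.56 CPM at P14 (0.03, SE 0.362), and Ackr4 had 0.620 CPM at P50 and 0.414 CPM at P14 (0.60, SE 0.555). Of 15 ligands of Ackr2 and their signalling receptors 7 were tested, 1 was lower and 0 higher. Ccl2, a chemokine for monocytes, averaged 0.944 ± 0.542 CPM in P50 df/+, 0.451 ± 0.184 CPM in P50 WT, 3.51 ± 1.15 CPM in P14 df/+ and 0.811 ± 0.709 CPM in P14 WT (SD, n = 4 each). With the genotypes averaged it fell at P50 (log2 -1.35, SE 0.417, edgeR adjusted p = 0.0158), and its call was lost without replicate 1 of P14 WT (adjusted p = 0.0540). Between df/+ and WT at P14 its log2 value was 2.12 and not called (edgeR adjusted p = 1.00), and the median of the 7 genes was 1.80 against -0.02 over all tested genes. Summed microglia markers were also high in P14 df/+, with 164 to 232 CPM, against 187.8, 62.7, 52.7 and 47.4 CPM in P14 WT replicates 1 to 4, and their part in the chemokine values was not tested.

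Among enzymes of bile acid and oxysterol synthesis 8 of 15 others were tested, 1 was lower and 4 higher at P50. The liver gene Cyp7a1, which encodes the rate-limiting enzyme of bile acid synthesis, had 0 reads in all 16 libraries, as had Hsd3b7, Akr1d1 and Akr1c6. Ch25h, a cholesterol hydroxylase, rose to 6.78 CPM at P50, against 0.574 CPM at P14 (log2 3.54, SE 0.458, adjusted p = 1.70e-05). Cyp27a1 (1.39) and Cyp46a1 (1.03), oxysterol-forming hydroxylases, rose too, Amacr rose by 0.28 (adjusted p = 0.0494, lost in 16 of 23 alternatives) and Hsd17b4 fell by 0.27. Of the tachykinin list 2 of 7 others were tested. Tac2, which encodes neurokinin B, the ligand of Tacr3, had 16 reads in all libraries, Tac1 had 77, Tacr1 14 and Tacr2 0. Ece1, a peptidase, rose (log2 0.41, SE 0.0865, adjusted p = 0.00126).

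NADPH oxidases included a further gene with a large age difference. Nox4, the endothelial oxidase that forms hydrogen peroxide, fell to 0.435 CPM at P50, against 16.0 CPM at P14, with ranges of 0 to 1.41 CPM and 13.3 to 18.6 CPM (log2 -5.21, SE 0.411, adjusted p = 1.00e-07). Of 15 other genes 9 were tested, and 2 were lower at P50, Nox4 and Ncf1 (-1.09). Cyba, the partner subunit of Nox4, was at 93.8 CPM at P50 and 83.4 CPM at P14 (0.16, SE 0.208). Of 21 Wnt targets and regulators of brain endothelium, all tested, 7 were lower and 5 higher, beside 19.7% and 24.2% of all tested genes. Those that fell included Fgfbp1 (-3.10), Apcdd1 (-1.65), Fzd6 (-1.14), Ppard (-0.87), Tnfrsf19 (-0.52) and Tcf7 (-0.34), and Reck (1.35), Lef1 (0.62), Axin2 (0.56), Foxq1 (0.37) and Sox17 (0.37) rose.

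**Figure D4:**
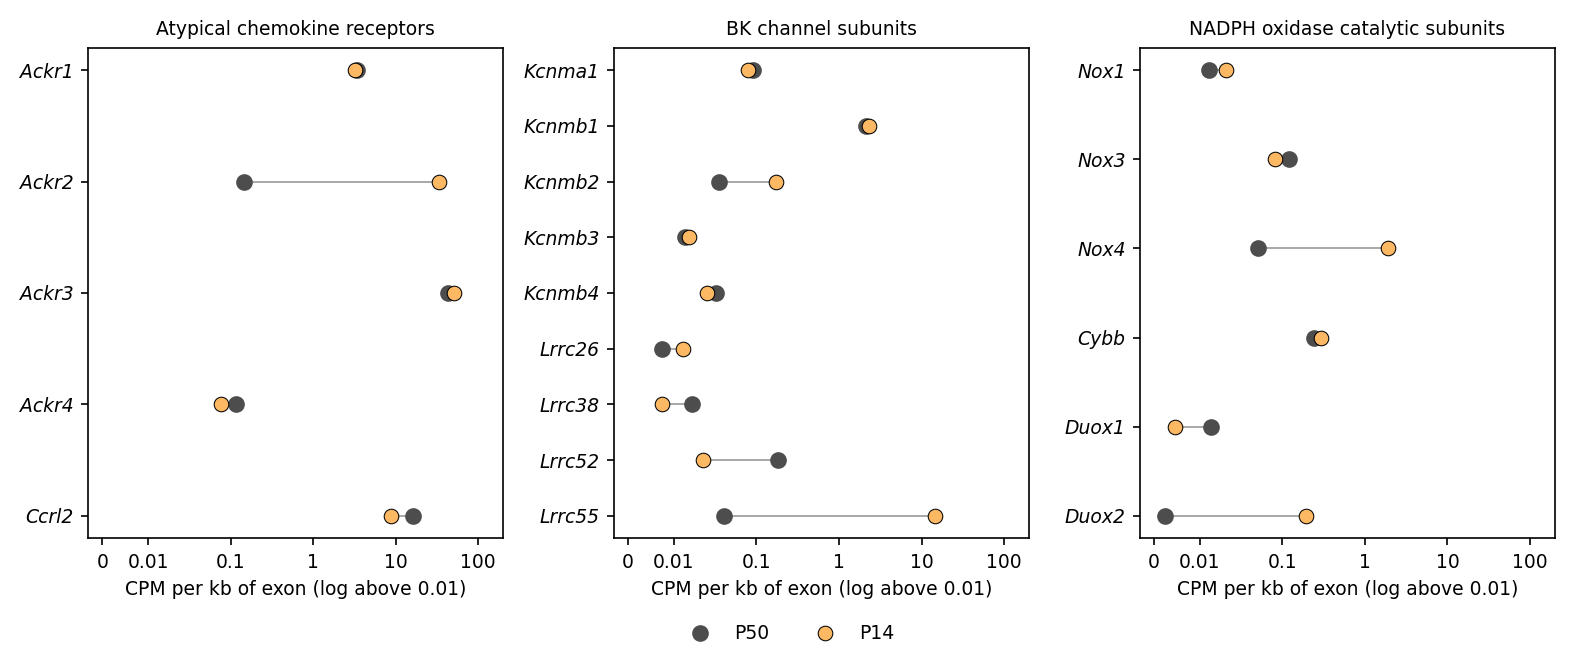
Mean level per kb of exon at P50 and P14, 8 libraries each, for the atypical chemokine receptors, the BK channel subunits and the catalytic subunits of the NADPH oxidases, on an axis that is logarithmic above 0.01 and linear below it. Ackr2, Lrrc55, Nox4 and Duox2 are far apart between the ages, while Ackr3, Kcnmb1 and Cybb have P50 and P14 levels close to each other.

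Genotype was the comparison that the choice of genes had not used. At P14 none of the 6 genes was called between df/+ and WT, where 0.0651% of all tested genes were (10 genes). Log2 values of df/+ over WT were -0.19 for Lrrc55 (SE 0.339, 95% interval -0.93 to 0.55), -0.38 for Gm13716 (SE 0.575, -1.63 to 0.87) and -0.08 for Ackr2 (SE 0.260, -0.65 to 0.49). They were -0.28 for Cyp8b1 (SE 0.300, -0.94 to 0.37), -0.54 for Tacr3 (SE 0.388, -1.39 to 0.30) and -0.58 for Duox2 (SE 0.583, -1.85 to 0.69), with an edgeR adjusted p = 1.00 for each. Differences of more than 1 log2 unit downward thus lie inside the intervals of Gm13716, Tacr3 and Duox2. All 6 values were under 0, as were those of 54.4% of all tested genes, and their median was -0.33 against -0.02. The libraries of the groups overlapped for every gene. In the labels the P14 WT libraries are numbered up to 8 and the P14 df/+ libraries from 9, and at P50 the df/+ libraries are numbered up to 6 and the WT libraries from 13. Genotype and library number therefore cannot be told apart at either age.

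At P50 the reads were too few for a comparison of genotypes to be informative, and the choice of genes required low values there. No member was called, against 0.0586% of all tested genes. The fitted log2 values were -0.10 for Lrrc55 (SE 0.733), 0.30 for Ackr2 (SE 0.472), -0.06 for Tacr3 (SE 1.12), 2.52 for Gm13716 (SE 1.37) and -2.29 for Duox2 (SE 1.44). Those of Gm13716 and Duox2 rest on 1 library each. Without replicate 4 of P50 df/+ the value of Gm13716 was -1.54, and Duox2 was at 0 once replicate 2 of P50 WT was left out. Cyp8b1 gives no value, being at 0 in both groups. For the difference of the genotype effects between the ages edgeR called 0.00% of the genes, with 305 genes at an unadjusted p under 0.05, and DESeq2 called 0 as well. Its values for the members were 0.09 for Lrrc55 (SE 0.852), 2.90 for Gm13716 (SE 1.49), 0.39 for Ackr2 (SE 0.539), 0.48 for Tacr3 (SE 1.88) and -1.72 for Duox2 (SE 1.27). Whether the share remaining at P50 differs between the genotypes is therefore not resolved at this depth.

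Within P14, where all 6 genes have reads in every library, their spread differed. Ackr2 varied least, with a coefficient of variation of 9.96% over the 8 libraries, where counting alone would give 2.62%. Lrrc55 varied by 34.2% (2.78% from counting), Gm13716 by 34.0% (12%), Tacr3 by 35.1% (14.0%) and Duox2 by 43.5% (23.6%). Cyp8b1 varied by 15.3%, under the 18.2% that counting alone would give. The 15 pairs of genes were compared by the correlation of their log2 CPM over the 8 P14 libraries. Tacr3 and Duox2, which lie on different chromosomes, varied together (Pearson r = 0.891, exact 2-sided permutation p = 7.4e-05, Benjamini-Hochberg adjusted p = 0.00112 over the 15 pairs; Spearman rho = 0.976, adjusted p = 0.00595). Without the 2 libraries farthest from the median of Tacr3 the r was 0.908. Leaving out replicate 2 of P14 WT left r at 0.894 but ended the call (adjusted p = 0.0838). As deviations from the genotype means r was 0.860 (permutation of all 8 libraries, adjusted p = 0.0275, approximate for deviations).

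The overlapping pair Lrrc55 and Gm13716 had r = 0.870 (exact permutation p = 0.00905, adjusted p = 0.0679) and rho = 0.833 (adjusted p = 0.0769), which did not pass. As deviations from the genotype means their r was 0.884 (permutation of all 8 libraries, adjusted p = 0.0160). Such deviations are tied to each other within a genotype, so this p is approximate and is not taken as a call. Ackr2 and Cyp8b1, the adjacent pair, had r = -0.05 and rho = 0.214 (exact permutation, adjusted p = 0.913 and 0.619). Their r was 0.625 without replicate 4 of P14 df/+, where Cyp8b1 was lowest, and -0.76 without the 2 libraries farthest from the median of Ackr2, so that the relation rests on single libraries. Ackr2 and Duox2 had r = 0.899 (exact permutation, adjusted p = 0.0748), and 0.372 without the 2 farthest libraries. None of the other 11 pairs passed over the 8 libraries. Several pairs without Cyp8b1 came close to the threshold. The r was 0.754 for Gm13716 and Tacr3, 0.748 for Lrrc55 and Tacr3 and 0.723 for Gm13716 and Duox2. It was 0.705 for Ackr2 and Tacr3 and 0.704 for Lrrc55 and Duox2 (exact permutation, adjusted p = 0.0748 to 0.0811 for these). Lrrc55 and Ackr2 had 0.583, and Gm13716 and Ackr2 0.559. Pairs with Cyp8b1 had -0.06 to 0.26. Some pairs passed once 1 library was left out. The pair Lrrc55 and Gm13716 was among them. Its r was 0.901 with replicate 4 of df/+ dropped (exact permutation, adjusted p = 0.0496). Without replicate 3 of P14 WT r was 0.903 for Ackr2 and Tacr3 and 0.979 for Ackr2 and Duox2 (exact permutation, adjusted p = 0.00446 and 0.00694), and without replicate 4 of P14 df/+ it was 0.919 for Gm13716 and Cyp8b1 (adjusted p = 0.0208, exact permutation).

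**Figure D5:**
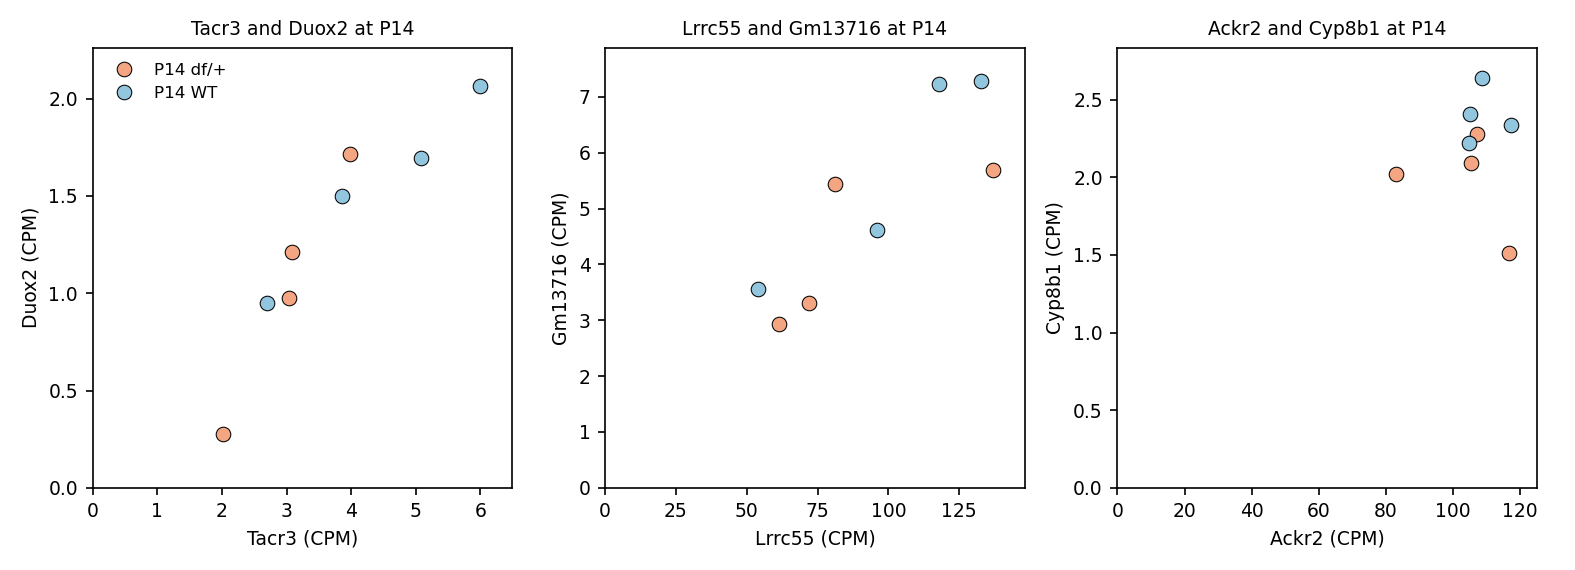
Level of the second gene against the first, both in CPM, in the 4 df/+ and the 4 WT libraries at P14, for Tacr3 and Duox2, Lrrc55 and Gm13716, and Ackr2 and Cyp8b1. The points of the first panel rise together (r = 0.891 on the log2 scale), those of the second do so with more scatter (0.870), and those of the third show no common direction (-0.05).

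The cell markers of the libraries differed with age and are given beside these values. Their counts stand beside 19.7% lower and 24.2% higher at P50 of all tested genes. Endothelial identity markers were present at both ages, with 4 of 20 lower and 8 higher at P50 and a summed level of 29775 to 38326 CPM at P50 and 25228 to 27732 CPM at P14. Pecam1, which encodes CD31, averaged 1457 CPM at P50 and 1358 CPM at P14 (log2 0.10, SE 0.0843). Of the cell cycle list 28 of 30 genes were lower at P50 and 0 higher (median -3.0), with sums of 169 to 250 CPM at P50 and 321 to 730 CPM at P14. Replicate 1 of P14 WT, which had the lowest Lrrc55 level at P14, also had the lowest cell cycle sum at P14, and the part of this in its Lrrc55 level was not tested. Genes of angiogenic tip and immature endothelium were lower in 16 of 20 cases and higher in 1 (median -1.80), with Apln at 21.8 CPM at P50 and 694 CPM at P14 (log2 -5.08, SE 0.318). These lists were chosen with earlier results of the same libraries known, and over all tested genes the median was 0.03.

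Lymphatic markers bear on Ackr2 and neuronal markers on Tacr3. Here too 19.7% of all tested genes were lower and 24.2% higher at P50. Of 9 lymphatic genes 8 were tested, 4 were lower at P50 and 1 higher, and the sum was 184 to 559 CPM in P50 df/+, 328 to 436 CPM in P50 WT, 503 to 570 CPM in P14 df/+ and 495 to 624 CPM in P14 WT, most of it from Flt4 and Nrp2, which other endothelium expresses too. Ccl21a was at 0 reads in all libraries. The tested lymphatic genes had a median log2 value of -0.60. Among them Prox1, the lymphatic transcription factor, averaged 1.76 CPM at P50 and 1.49 CPM at P14 (log2 0.25, SE 0.555). Of 15 neuronal genes 14 were tested, 1 was lower at P50 and 2 higher, with sums of 76.0 to 132 CPM in P50 df/+, 89.9 to 144 CPM in P50 WT, 49.6 to 164 CPM in P14 df/+ and 44.0 to 81.3 CPM in P14 WT. Choroid plexus and ependyma markers were higher at P50 in 9 of 10 cases, with sums of 2221 to 43252 CPM in P50 df/+, 1608 to 17641 CPM in P50 WT, 30.6 to 3155 CPM in P14 df/+ and 584 to 1260 CPM in P14 WT. Perivascular macrophage markers were lower at P50 in 5 of 8 cases, with sums of 215 to 329 CPM in the P50 libraries and 567 to 697 CPM in the P14 libraries, which did not overlap. Oligodendrocyte sums were 8722 to 20974 CPM in P50 df/+, 9525 to 27089 CPM in P50 WT, 1777 to 5464 CPM in P14 df/+ and 1253 to 10311 CPM in P14 WT. Replicate 1 of P14 WT was the highest there, with the other 3 at 1253 to 2178 CPM. The part of these lists in the values of the 6 genes was not tested.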

How the data were processed

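Strand-specific mRNA libraries were sequenced from bead-selected cortical endothelial cells. The submitters' processing notes name STAR 2.5.3a, DESeq2 and the build GRCm38.p5. No source used here gives the counting tool, its strand setting or its annotation. From what was deposited, the table of raw read counts per Ensembl gene was the only table used, and a deposited normalized table and a mapping summary were not used here. Of 52636 gene IDs, 52489 have a symbol in GENCODE M21 and 147 have none.

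filterByExpr, at a minimum of 10 counts (0.647 CPM here) in 4 libraries, kept 15368 genes. The quasi-likelihood test of edgeR 4.0.16 (R 4.3.3) was applied to them, with TMM factors and 1 mean per group over all 16 libraries (12 residual degrees of freedom, biological coefficient of variation 29.1%). P-values were adjusted by Benjamini-Hochberg over these genes and called under 0.05. The edgeR test was tried on simulated counts for genotype at P14 and for age with the genotypes averaged. P-values measure the spread between pools of 2 mice. The 6 genes, the lists and the tests were chosen with earlier results of these data known. Named beside the 6 genes are the 5 genes nearest in profile, the tested genes within 250 kb, list genes that passed or share a family, and the 20 lowest P50 to P14 ratios. Summed reads were compared between ages with an exact conditional interval, and a group at 0 was set at 3 reads over the group. Intervals and floors cover counting error only, since reads carry no molecular identifiers. Correlations used all permutations of the 8 P14 libraries. Same-numbered libraries deviated together in every pair only between P50 WT and P14 WT (correlation 0.111 to 0.239), and in no genotype comparison, so the numbers were not taken as pairs there. Alternatives were other scaling factors, DESeq2 1.42.0, no filter, only the 8 libraries compared, a replicate block, and fits without single libraries or without both that stood apart. Single values of some list genes are not reported here.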

Additional observations from a re-analysis of the deposited data

Results flagged for a closer look

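Within the groups of 4 libraries 5 of 21 sets of values held a library far from the other 3. All 5 are P50 groups in which 3 libraries held no read of the gene, so that any read in the remaining library sets it apart, whatever its number. Gm13716 stood at 0.484 CPM in replicate 4 of P50 df/+ from 9 reads, the only such value with more than 2 reads. In P50 WT, Gm13716 stood at 0.0662 CPM in replicate 2 from 1 read. Tacr3 stood at 0.0581 CPM in replicate 3 of P50 df/+ and at 0.0631 CPM in replicate 1 of P50 WT, each from 1 read. Duox2 stood at 0.132 CPM in replicate 2 of P50 WT from 2 reads.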

How the results depend on the processing

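None of 144 alternative values of the 6 genes between genotypes at P14 was called (lowest adjusted p = 0.602 by edgeR or DESeq2). Leaving out single libraries gave log2 ranges of -0.49 to -0.02 for Lrrc55, -0.55 to -0.23 for Gm13716, -0.15 to 0.0087 for Ackr2, -0.36 to -0.17 for Cyp8b1, -0.71 to -0.36 for Tacr3 and -0.94 to -0.26 for Duox2. Only Ackr2 changed sign, without replicate 3 of P14 df/+. With the replicate number as a block no member was called, and Lrrc55 was at -0.21, Gm13716 at -0.38, Ackr2 at -0.09, Cyp8b1 at -0.29, Tacr3 at -0.50 and Duox2 at -0.65. The 10 genes called between genotypes at P14 became 3 with this block, 5 with upper-quartile factors, 23 with DESeq2, 22 with only the 8 libraries, 137 without both libraries that stood apart, and 3 to 73 without single libraries, the highest without replicate 1 of P14 WT. At P50 the 9 became 31 with DESeq2, 0 with only the 8 libraries, 18 without both and 5 to 16 without single libraries. The cause was not tested.

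Values between genotypes at P50 depended on single libraries, with ranges of -0.61 to 0.55 for Lrrc55, -1.54 to 4.08 for Gm13716, -0.062 to 0.66 for Ackr2, -1.55 to 1.48 for Tacr3 and -2.66 to 0 for Duox2. Without both libraries that stood apart Lrrc55 was at 0.25 and Tacr3 at 0.17. For the difference between ages the ranges were -0.42 to 0.74 for Lrrc55, -1.16 to 4.45 for Gm13716, -1.01 to 2.02 for Tacr3 and -2.09 to 0.57 for Duox2. Fits of only the 8 P50 libraries gave no member value, because the filter removed the genes. The share remaining at P50 ranged over 0.252% to 1.09% for Gm13716 in WT, 0.437% to 1.96% for Tacr3 in df/+, 0.316% to 1.40% for Tacr3 in WT and 1.80% to 3.93% for Duox2 in WT, each highest without the only library that held reads, where the limit of 3 reads takes its place. For Gm13716 in df/+ it ranged over 1.35% to 3.98%, lowest without its only library with reads. Without both libraries that stood apart, the share over both genotypes was 1.61% for Gm13716 and 0.489% for Ackr2. It was at most 1.17% for Cyp8b1, 0.437% for Tacr3 and 1.26% for Duox2.

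Without single libraries, r at P14 was 0.833 to 0.903 for Lrrc55 and Gm13716, -0.46 to 0.63 for Ackr2 and Cyp8b1, 0.891 to 0.937 for Tacr3 and Duox2 (0.894 where the call was lost), -0.36 to 0.86 for Lrrc55 and Cyp8b1, 0.38 to 0.90 for Ackr2 and Tacr3, 0.46 to 0.98 for Ackr2 and Duox2, 0.03 to 0.92 for Gm13716 and Cyp8b1, and -0.082 to 0.71 for Cyp8b1 and Duox2. As deviations from genotype means, r was 0.884 for Lrrc55 and Gm13716. It was 0.895 for Ackr2 and Duox2 and 0.860 for Tacr3 and Duox2 (permutation, adjusted p = 0.0275 for each, approximate for deviations). It was -0.0029 for Gm13716 and Cyp8b1, -0.23 for Cyp8b1 and Tacr3, and -0.28 for Cyp8b1 and Duox2. Of 34 other named genes called with age, 30 were called in each of 23 alternatives and 0 changed sign. The exceptions were Ccdc13 (called in 12, highest adjusted p = 0.0825), Amacr (7, 0.177), Foxq1 (19, 0.0646) and Ccl2 (22, 0.0540), all by edgeR or DESeq2. Depth limits every statement on P50 levels of Cyp8b1, Tacr3, Duox2 and Gm13716, which rest on 0, 2, 2 and 10 reads.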
